A study of Homo sapiens with 6 samples.

Results

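The transcripts examined are those of 8 poly(ADP-ribose) polymerase (PARP) genes, PARP1, PARP2, PARP4, PARP8, PARP9, PARP10, PARP12 and PARP14, and of DTX3L, the ubiquitin ligase that binds PARP9. They were chosen by gene symbol, with earlier results of these data known, and the table of counts lists all 9 among 37887 symbols. Libraries of mRNA were made from total RNA of BT-549 cells, an established human triple-negative breast cancer (TNBC) line. They came from 3 control cultures and 3 cultures in which a short hairpin RNA (shRNA) silenced IRF1. The controls were titled as carrying a control shRNA and received 0.1% DMSO, and the IRF1shRNA cultures received 500 ng/ml doxycycline, which switches on the tet-inducible hairpin. The series description speaks instead of cells with a single inducible IRF1 vector given vehicle or drug. Doxycycline went only to the silenced cultures, so effects of the drug, of the hairpin and of IRF1 loss cannot be told apart, and the labels name no further hairpin.

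PARP enzymes transfer ADP-ribose from NAD+ to proteins or nucleic acids. PARP1 and PARP2 build long ADP-ribose chains at DNA breaks and are the targets of the PARP inhibitors used in breast cancer. Another branch of the family answers to interferon (IFN): PARP9, PARP10, PARP12 and PARP14 are known as IFN-stimulated genes whose products restrict viruses, modify host proteins with single ADP-ribose units or, for PARP9, act with DTX3L. IRF1 is a transcription factor that binds IFN-stimulated response elements, so the comparison asks which PARP transcripts differ in cultures where it is silenced.

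IRF1 was at 45.3, 48.1 and 51.5 CPM (counts per 1000000 counts of a library, with TMM scaling) in the controls and at 13.8, 14.9 and 14.6 CPM in the IRF1shRNA libraries. This targeted transcript was thus at 29.9% of control (log2 fold change −1.74 ± 0.06, SE; adjusted p = 4.53e-13 by edgeR), with no overlap. Total counts per library ran from 55143808 to 160436234, with IRF1shRNA replicate 2 the shallowest. At these depths 3 counts equal 0.0182 to 0.0540 CPM, a floor that covers counting error only. The cells carried the mesenchymal markers VIM, CDH2, ZEB1 and FN1 at means of 79.4 CPM or more in each group. After silencing, 3 of the 4 were called lower, where 26.4% of all genes tested were. The log2 fold changes were −0.56 for VIM, −0.34 for FN1 and −0.14 for ZEB1. The part of these markers in the results below was not tested. PGR, CDH1, EPCAM and ESR1 were under 1 CPM in every library, ERBB2 fell from a mean of 50.8 to 36.4 CPM (log2 fold change −0.48), and of the markers of other cells only PTPRC passed the filter on low counts, at 0.298 to 0.757 CPM.

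All 5 IFN-linked transcripts, PARP9, DTX3L, PARP14, PARP10 and PARP12, were lower in the IRF1shRNA libraries, at between 10.7% and 26.0% of control, whereas PARP1, PARP2, PARP4 and PARP8 stayed between 91.3% and 113% of control. All 9 genes passed the filter on low counts. The 5 IFN-linked genes were each over 2-fold lower with an adjusted p under 0.05 in edgeR's quasi-likelihood test, where 4.43% of all 18851 genes tested were called lower by the same rule. None of the 9 was over 2-fold higher, against 3.43% of genes tested. The 5 were grouped from what is known of the genes, and only among the 9. ZC3HAV1, an antiviral PARP family gene outside the 9, was at 51.6% of control, less than 2-fold lower. Without the fold threshold, 7 of the 9 were called, 6 lower and 1 higher, where 50.5% of genes tested were called, 26.4% lower and 24.1% higher. Calls were thus common among all genes. For 8 of the 9 genes every silenced library lay on 1 side of every control, which held for 56.8% of genes tested. The median log2 fold change was −2.60 over the 5 IFN-linked genes and −0.0024 over all genes tested. In bulk RNA, fewer cells that express a gene and less RNA of it per cell cannot be told apart.

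**Figure D1:**
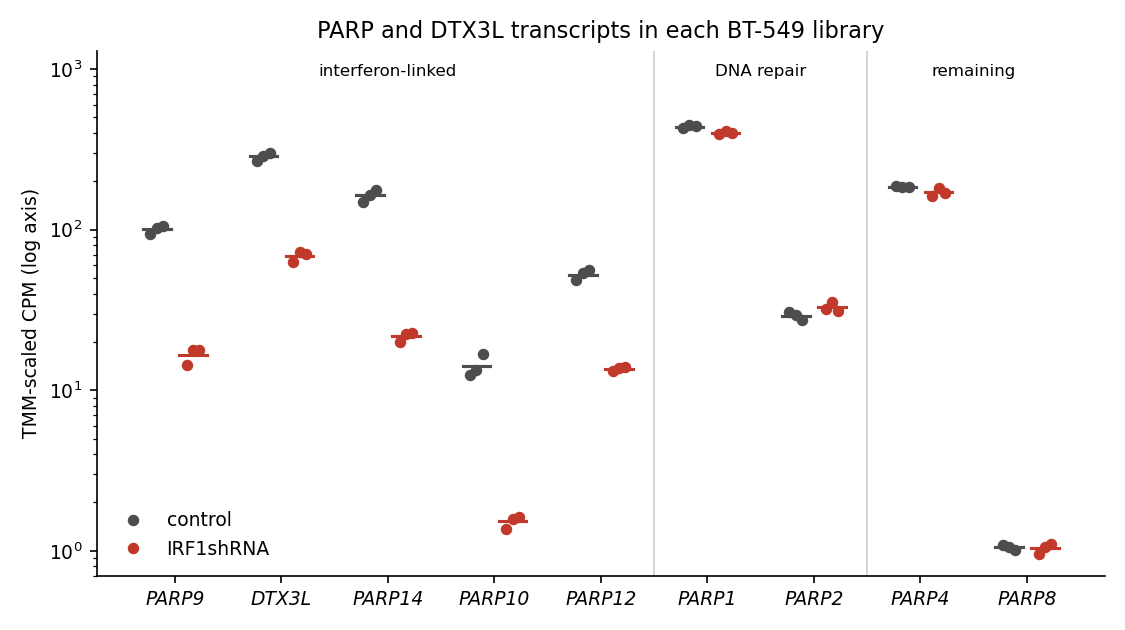
TMM-scaled CPM (log axis) of each member in the 3 control and 3 IRF1shRNA libraries, with points for libraries and bars for group means. The 5 IFN-linked genes on the left lie far lower after silencing, whereas PARP1, PARP2, PARP4 and PARP8 differ little. Only PARP8 overlaps between the groups.

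PARP9 and DTX3L form a complex in which DTX3L supplies the ubiquitin ligase activity and PARP9 binds ADP-ribose through its macrodomains. The genes lie head to head on chromosome 3 (GENCODE release 29 on GRCh38), PARP9 at chr3:122527924-122564577 on the minus strand and DTX3L at chr3:122564238-122575203 on the plus strand, so their annotated spans overlap at the 5′ ends. Whether the counting used strand is not given in the sources used here, and reads from the overlap are therefore uncertain between the genes.

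PARP9 was at 94.4, 103 and 106 CPM in the controls and at 14.4, 17.8 and 17.8 CPM in the IRF1shRNA libraries. Every silenced library was thus far under every control. The log2 fold change was −2.60 ± 0.07 (SE; 95% interval −2.75 to −2.46), a 6.08-fold decrease, with an adjusted p of 1.66e-14. DTX3L was at 267, 289 and 301 CPM in the controls and at 62.7, 72.3 and 70.5 CPM after silencing. Its groups were as clearly apart, with a log2 fold change of −2.06 ± 0.06 (−2.18 to −1.94), a 4.17-fold decrease, and an adjusted p of 2.2e-14.

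The 95% intervals of the pair did not meet. There were 2.80 to 2.85 DTX3L counts for each PARP9 count in the controls and 3.96 to 4.35 in the silenced libraries. This ratio is taken within a library and does not depend on the scaling between libraries. It rose by 0.54 on the log2 scale, with SDs of 0.01 and 0.07 (n = 3 each). The exact two-sided permutation test gave p = 0.1, the smallest that 3 against 3 libraries can reach, and 0.1 after adjustment over the 3 ratios compared among the chromosome 3 members.

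PARP14, the largest of the macrodomain PARPs and a known cofactor of STAT6, lies in the same cluster at chr3:122680618-122730840 on the plus strand. PARP14 was at 149, 164 and 177 CPM in the controls and at 19.98, 22.2 and 22.7 CPM in the IRF1shRNA libraries. The silenced libraries lay close together, far under the controls. The log2 fold change was −2.92 ± 0.06 (−3.05 to −2.78), a 7.56-fold decrease, with an adjusted p of 1.69e-15. For each PARP9 count there were 1.58 to 1.67 PARP14 counts in the controls and 1.25 to 1.39 after silencing, so PARP14 fell by more than PARP9, by 0.31 on the log2 scale (exact permutation p = 0.1, adjusted 0.1). For each DTX3L count there were 0.559 to 0.586 PARP14 counts in the controls and 0.308 to 0.321 after silencing. That ratio changed by −0.86 on the log2 scale (exact permutation p = 0.1, adjusted 0.1).

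PARP10 and PARP12 are mono-ADP-ribosyltransferases encoded outside this cluster, PARP10 at chr8:143977153-144012772 and PARP12 at chr7:140023744-140063721, both on the minus strand. PARP10 was at 12.4, 13.4 and 16.9 CPM in the controls and at 1.37, 1.57 and 1.63 CPM in the IRF1shRNA libraries. It had the lowest fold change of the 9 genes, −3.23 ± 0.12 on the log2 scale (−3.48 to −2.97), a 9.35-fold decrease with an adjusted p of 7.1e-13. The silenced libraries still held 173, 87 and 269 PARP10 counts, well over the floor. GRINA and SPATC1 overlap PARP10 on the opposite strand, and their log2 fold changes of 0.10 (adjusted p = 0.162 by edgeR) and −0.03 (0.962) did not follow it.

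PARP12, which carries zinc fingers like those of the antiviral protein ZC3HAV1, was at 48.3, 53.3 and 55.8 CPM in the controls. It was at 13.1, 13.8 and 14.0 CPM in the IRF1shRNA libraries, a narrow range far under the controls. The log2 fold change was −1.94 ± 0.06 (−2.08 to −1.81), a 3.85-fold decrease with an adjusted p of 1.27e-13. The intervals of PARP12 and DTX3L, the smallest decreases among the 5 genes, overlapped, and those of PARP10 and PARP14 overlapped likewise. Overlap of intervals does not show that decreases are equal, and the ratios within these pairs were not tested.

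PARP1 and PARP2, the DNA break sensors, moved by small amounts in opposite directions. PARP1 was at 431, 445 and 440 CPM in the controls and at 392.5, 411 and 398 CPM in the IRF1shRNA libraries. The groups did not overlap, which held in this direction for 29.5% of genes tested. Its log2 fold change was −0.13 ± 0.04 (−0.22 to −0.04; adjusted p = 0.0128 by edgeR). PARP2 was at 30.6, 29.4 and 27.4 CPM in the controls and at 31.9, 35.4 and 31.3 CPM after silencing. Its groups did not overlap either, with a log2 fold change of 0.17 ± 0.06 (0.04 to 0.30; adjusted p = 0.0299 by edgeR). Both calls were lost in some fits. PARP1 no longer passed under upper quartile scaling (−0.088) or library size only (−0.081), without control replicate 2 (−0.12) or without IRF1shRNA replicate 1 (−0.12). PARP2 no longer passed without control replicate 2 (0.18), control replicate 3 (0.13) or IRF1shRNA replicate 2 (0.12).

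PARP4, the PARP of the vault particle, and PARP8, a mono-ADP-ribosyltransferase, were not called. PARP4 was at 188, 183 and 184 CPM in the controls and at 162, 183 and 170 CPM in the IRF1shRNA libraries. The groups did not overlap, but IRF1shRNA replicate 2 lay close to the controls. The log2 fold change of −0.11 ± 0.05 (−0.21 to −0.01) had an adjusted p of 0.0588, and without that library PARP4 was at −0.15 with an adjusted p of 0.00821 by edgeR. PARP8 was the scarcest member, at 1.09, 1.05 and 1.01 CPM in the controls and 0.952, 1.06 and 1.11 CPM after silencing. Its groups overlapped, and with 59 to 182 counts a library its interval was the widest of the 9, from −0.36 to 0.33 around −0.01. The genes of PARP1 and PARP4 have pseudogene copies, of which PARP1P1 and PARP4P2 passed the filter at under 1 CPM in every library.

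**Figure D2:**
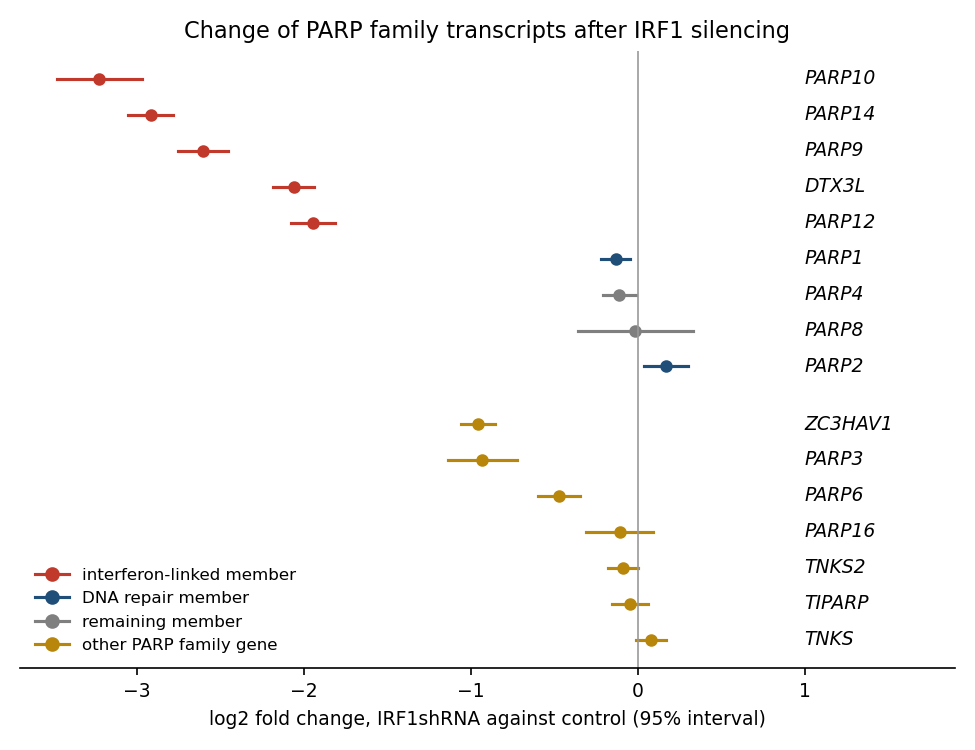
Log2 fold change, IRF1shRNA against control, with 95% intervals for the 9 members and, below the gap, the 7 other PARP family genes that could be tested. The 5 IFN-linked members lie between −3.23 and −1.94, ZC3HAV1 and PARP3 at −0.96 and −0.93, and the rest within 0.5 of no change.

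The IFN-linked genes were next set against PARP1 within each library. PARP14 counts were 0.346, 0.369 and 0.402 of PARP1 counts in the controls and 0.0509, 0.0541 and 0.0570 in the IRF1shRNA libraries. On the log2 scale, the ratio to PARP1 changed by −3.08 for PARP10, −2.78 for PARP14, −2.47 for PARP9, −1.93 for DTX3L and −1.81 for PARP12. The spread within a group was at most 0.22 (SD, n = 3), for PARP10 in the controls, and none of these 5 ratios overlapped between the groups. The ratio of PARP2 to PARP1 rose by 0.30, also without overlap. Each of these 6 ratios had p = 0.1 in the exact two-sided permutation test, the smallest possible, or 0.133 after adjustment over the 8 ratios to PARP1. The ratios of PARP4 (0.02; exact permutation p = 0.7, adjusted 0.7) and PARP8 (0.11; p = 0.2, adjusted 0.229) to PARP1 overlapped between the groups. Their ratios to PARP2, given in the closing section, did not overlap.

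**Figure D3:**
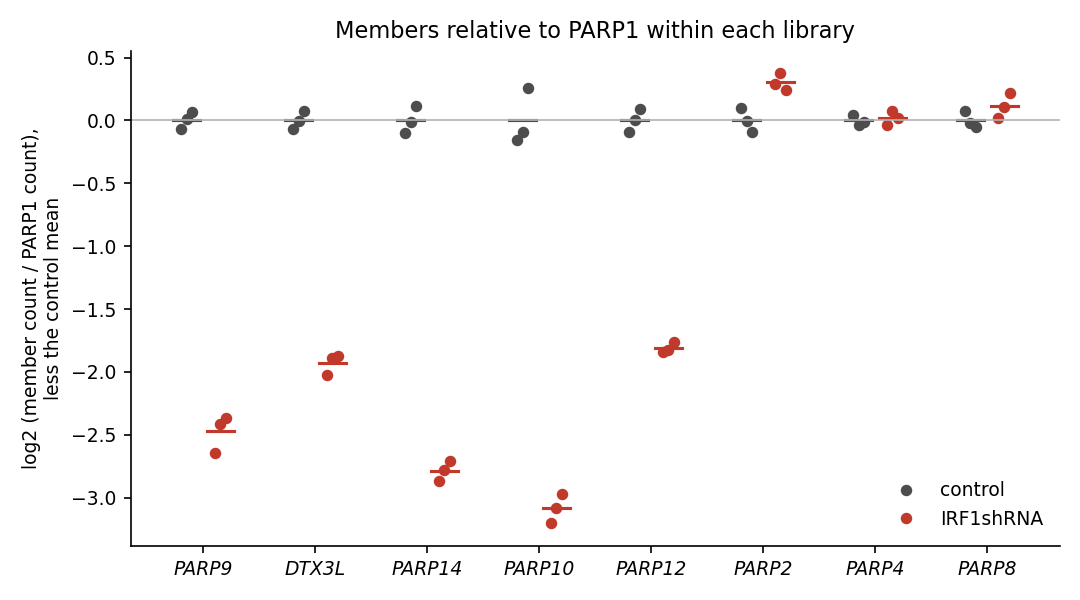
Log2 ratio of each member's count to the PARP1 count in the same library, less the mean of the controls, with points for libraries and bars for group means. The 5 IFN-linked genes drop by 1.81 to 3.08, PARP2 rises by 0.30, and PARP4 and PARP8 overlap between the groups.

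Of 18851 genes tested, 53 had a lower log2 fold change than PARP10, 66 than PARP14, 88 than PARP9, 151 than DTX3L and 173 than PARP12, or 0.918% of genes for the last. By contrast, 37.2% of genes had a lower log2 fold change than PARP1 and 66.9% than PARP2.

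**Figure D4:**
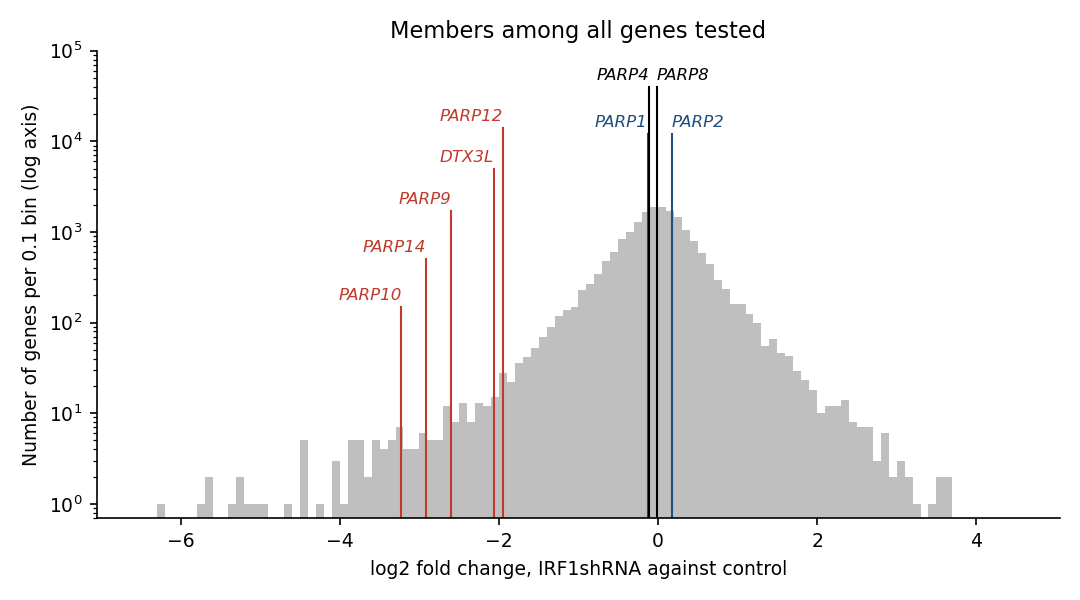
Distribution of log2 fold changes over the 18851 genes tested (grey, bins of 0.1, log axis), with a line at each member whose height carries no value. PARP10, PARP14, PARP9, DTX3L and PARP12 stand in the sparse lower tail, and PARP1, PARP2, PARP4 and PARP8 in the center.

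Levels were compared between genes as counts per kilobase of merged exons, scaled to a sum of 1000000 in every library. In the controls PARP1 was the most abundant at 206 ± 4.99 (SD, n = 3), followed by DTX3L at 164 ± 4.55, PARP4 at 103 ± 4.61, PARP14 at 52.4 ± 2.696, PARP9 at 38.1 ± 1.02, PARP12 at 28.1 ± 1.15, PARP2 at 24.0 ± 2.11, PARP10 at 7.94 ± 1.07 and PARP8 at 0.353 ± 0.0241 on this scale. Neighbors in this order did not overlap in any control, although PARP12 and PARP2 were close (lowest PARP12 26.9, highest PARP2 26.1). After silencing the order changed. DTX3L, at 41.4 ± 3.72, stood under PARP4 at 100.04 ± 7.48, and PARP2, at 28.4 ± 2.09, stood over PARP12 at 7.70 ± 0.393, PARP14 at 7.31 ± 0.608 and PARP9 at 6.62 ± 0.876. The ranges of PARP12 and PARP14, and of PARP14 and PARP9, overlapped in the silenced libraries. PARP10, at 0.897 ± 0.0940, approached PARP8 at 0.367 ± 0.0338. On this scale, the IFN-linked transcripts other than DTX3L and PARP10 were thus each above PARP2 in every control and below it in every silenced library. The order between genes depends on the lengths used, and no other lengths were tried.

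The promoters of the members show how they differ in sequence, and stretches before the start site are printed for 3 windows that hold an IRF-binding element and for PARP1 and PARP2, which hold none. The element searched on both strands was GAAA, any 2 bases, then GAAA, the core to which IRF factors bind, and its matches are in capitals. The sequences are from RefSeq (GRCh38.p14), read 5′ to 3′ on the strand of the gene. The DTX3L stretch, chr3:122564278-122564352 on the plus strand, covers 60 bases before the start and 15 from it on. The others cover 100 bases before the start: PARP14 at chr3:122680739-122680838 (plus), PARP12 at chr7:140062952-140063051 (minus), PARP1 at chr1:226408094-226408193 (minus) and PARP2 at chr14:20343535-20343634 (plus).
DTX3L: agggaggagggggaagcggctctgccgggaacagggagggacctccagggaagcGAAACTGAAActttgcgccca
PARP14: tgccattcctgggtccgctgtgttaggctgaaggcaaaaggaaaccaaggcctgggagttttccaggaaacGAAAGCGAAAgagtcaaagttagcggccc
PARP12: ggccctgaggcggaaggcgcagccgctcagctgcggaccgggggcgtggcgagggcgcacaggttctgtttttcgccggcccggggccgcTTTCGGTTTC
PARP1: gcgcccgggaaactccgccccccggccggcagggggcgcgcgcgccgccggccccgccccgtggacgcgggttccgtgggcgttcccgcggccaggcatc
PARP2: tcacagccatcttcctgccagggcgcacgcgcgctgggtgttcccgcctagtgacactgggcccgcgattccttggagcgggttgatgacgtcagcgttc

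RefSeq windows of 250 bases before to 50 after a start were used for 7 of the 9 members, all but PARP4 and PARP10, 10 windows in all. The IRF element was in windows of 4 members, PARP9, DTX3L, PARP14 and PARP12, and in no window of PARP1, PARP2 or PARP8. PARP9 and DTX3L share a single match, GAAACTGAAA at chr3:122564332-122564341, which lies 32 to 41 bases before a start of PARP9 and across the start of DTX3L. These starts are divergent with 37 bases between them, and the window at the other start of PARP9 held no match. The PARP14 match, GAAAGCGAAA, lies 20 to 29 bases before the start, and the PARP12 match reads GAAACCGAAA on the strand opposite to the gene and lies 1 to 10 bases before its start.

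The element was found in 1255 of 35116 windows of all genes, or 3.57%. By gene, it was in a window of 4.01% of the 12425 genes tested that had one, of 12.9% of the 549 that were over 2-fold lower with an adjusted p under 0.05, members included, and of 3.69% of the 406 that were over 2-fold higher. A STAT element, TTC, any 3 bases, then GAA, which reads the same on both strands, was in the windows of PARP14 (TTCCAGGAA, 32 to 40 bases before the start, clear of the IRF match) and of PARP2 (TTCCCAGAA, 146 to 154 bases before). It was in 7.66% of all windows, and in 10.4% of the genes over 2-fold lower against 11.1% of those over 2-fold higher. A match describes the letters of a window and is not a binding site, and shares are given with no test.

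Genes around the chromosome 3 cluster were examined next. Over 1.5-fold with an adjusted p under 0.05, 0 of those tested were lower and 2 higher, where 10.1% and 7.62% of all genes tested were. Of 13 listed genes within 250 kb of PARP9, DTX3L or PARP14, 9 could be tested, of which 2 were called lower and 2 higher, near the 26.4% and 24.1% of all genes tested, with a median log2 fold change of −0.0008. KPNA1, an importin gene next to PARP9, was at 126 ± 0.667 CPM in the controls and 126 ± 5.52 CPM after silencing (SD, n = 3 each). HSPBAP1, the gene after PARP14, had a log2 fold change of −0.14 ± 0.09 with an adjusted p of 0.209. The genes called lower changed little, SLC49A4 by −0.18 ± 0.07 and FAM162A by −0.15 ± 0.05, and neither was called under upper quartile scaling or library size only. WDR5B rose from 10.4 ± 0.712 to 16.1 ± 0.590 CPM and the non-coding LINC02035 from 3.51 ± 0.305 to 7.38 ± 0.109 CPM, with log2 fold changes of 0.62 ± 0.07 and 1.07 ± 0.09. PARP15, which sits between DTX3L and PARP14, had 2, 2 and 4 counts in the controls and 0 in each silenced library, under the filter and too few for a comparison.

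**Figure D5:**
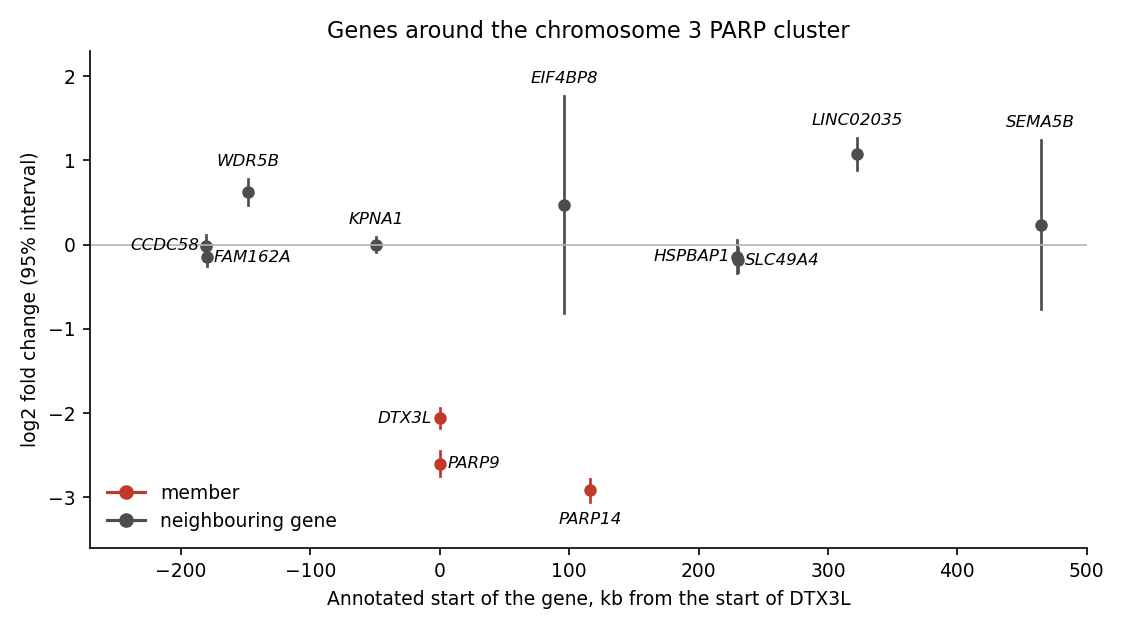
Log2 fold change, IRF1shRNA against control, with 95% intervals for genes around the chromosome 3 cluster, placed by the distance of their GENCODE start from that of DTX3L in kb. DTX3L, PARP9 and PARP14 lie between −2.92 and −2.06, and the other genes tested between −0.18 and 1.07.

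Among the 9 other genes of the PARP family, 7 could be tested, of which 3 were called lower and 0 higher by edgeR, where 26.4% of all genes tested were lower and 24.1% higher. Their median log2 fold change was −0.11. At an unadjusted p under 0.05, too, none was higher, and none was higher in DESeq2, whereas TNKS was called higher under 3 other settings given in the closing section. ZC3HAV1, also called PARP13, an antiviral protein that binds CpG-rich RNA and lacks transferase activity, fell from 188 ± 9.18 to 96.8 ± 4.24 CPM (log2 fold change −0.96 ± 0.05). PARP3, which acts in DNA break repair, fell from 5.47 ± 0.546 to 2.86 ± 0.0684 CPM (−0.93 ± 0.10). Their adjusted p-values were 3.45e-11 and 4.16e-07. PARP6 fell by less, from 26.4 ± 1.0004 to 19.0 ± 0.569 CPM (−0.47 ± 0.06). TIPARP, the aryl hydrocarbon receptor target, was at 301 ± 23.2 and 292 ± 9.83 CPM, with overlapping groups, and TNKS, TNKS2 and PARP16 were not called either. PARP11 and PARP15 did not pass the filter.

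All 10 genes listed for removing, reading or assisting ADP-ribose could be tested, of which 3 were called lower and 3 higher, near the 26.4% and 24.1% of all genes tested, with a median log2 fold change of −0.005. PARG, the main enzyme that degrades ADP-ribose chains, fell from 50.03 ± 0.941 to 32.0 ± 1.502 CPM (log2 fold change −0.65 ± 0.05, adjusted p = 8.81e-09 by edgeR). Its control libraries ranged from 49.0 to 50.7 CPM and its silenced ones from 30.6 to 33.6 CPM. MACROD2, a macrodomain hydrolase that removes the last ADP-ribose unit, rose from 0.594 ± 0.0437 to 1.38 ± 0.0621 CPM (1.21 ± 0.17, adjusted p = 1.24e-05 by edgeR). ADPRHL2 and XRCC1 were lower by 0.50 and 0.28 on the log2 scale, and OARD1 and APLF were higher by 0.20 and 0.39. HPF1, the cofactor that directs PARP1 and PARP2 to serine, was at 18.4 ± 0.959 and 19.5 ± 0.673 CPM and was not called.

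Of the 4 other Deltex ligases, 3 could be tested, of which 2 were called lower and 1 higher, where 26.4% and 24.1% of all genes tested were. DTX4 fell from 1.37 ± 0.0768 to 0.337 ± 0.137 CPM (log2 fold change −1.92 ± 0.23, adjusted p = 1.69e-06 by edgeR). DTX3, at −0.32 ± 0.05, was lower and DTX2, at 0.36 ± 0.06, was higher, and DTX1 was under the filter.

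The supply of NAD+, the substrate of every active PARP, was examined with 13 genes, of which 12 could be tested, 5 lower and 5 higher (26.4% and 24.1% of all genes tested), with a median log2 fold change of 0.15. Over 1.5-fold, 3 were lower and 4 higher, where 10.1% of genes tested were called lower and 7.62% higher by that rule. QPRT, the enzyme that feeds NAD+ synthesis from tryptophan breakdown, fell from 1.54 ± 0.0963 to 0.329 ± 0.0649 CPM (−2.24 ± 0.20). NMNAT2 and SARM1, the cytosolic NAD+ synthase and the NAD+ hydrolase of axon loss, fell by 0.73 and 0.71 on the log2 scale. NMNAT1, the nuclear synthase, rose from 11.7 ± 0.550 to 23.5 ± 1.64 CPM (1.001 ± 0.07). NMRK1, a nicotinamide riboside kinase, and the NAD+ hydrolase genes BST1 and CD38 rose by 1.16, 1.02 and 0.79. NAMPT, the rate-limiting enzyme of the salvage route, stood at 546 ± 21.2 and 493 ± 16.8 CPM, a log2 fold change of −0.15 ± 0.04.

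STAT2 and IRF9, which act together in the response to type I IFN, were both called lower, where 26.4% of all genes tested were. STAT2 fell from 64.1 ± 4.84 to 31.9 ± 1.58 CPM (−1.01 ± 0.06, adjusted p = 1.66e-10 by edgeR) and IRF9 from 4.69 ± 0.112 to 1.71 ± 0.305 CPM (−1.43 ± 0.12, adjusted p = 2.6e-08). The 95% intervals of STAT2 and IRF9 reached no lower than −1.69, and those of the 5 IFN-linked members no higher than −1.81. That of IRF1, the targeted gene, ran from −1.88 to −1.61 and overlapped that of PARP12.

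The genes whose profile over the 6 libraries was most like that of each IFN-linked member were listed by the root mean square distance between centered log2 CPM values, among the 13065 genes whose mean reached 1 CPM. For PARP9 they were DDX60L (0.0746), BMP7 (0.0868) and CD24 (0.0978). For DTX3L they were TRIM21 (0.0513), PLSCR1 (0.0576) and CCN3 (0.0618), and for PARP12 they were PLSCR1 (0.0258), APOL6 (0.0354) and TGFBI (0.0605). FGFRL1 (0.0808), IFIT5 (0.102) and DDX60 (0.118) were nearest to PARP14. UBE2L6 (0.0626) and USP18 (0.102), which attach and remove ISG15, and GBP1 (0.111), a guanylate-binding protein, were nearest to PARP10. These distances are set mostly by the difference between the groups that all such genes share.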

How the data were processed

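Per the labels, libraries were made with TruSeq Stranded mRNA kits, and the submitters' processing notes name CASAVA 1.8.2, STAR 2.7.9a, featureCounts, DESeq2 1.24.0 and GRCh38.p7. The annotation release and strand setting are not given in the sources used here. For 6 libraries the authors deposited a table of unnormalized counts by gene symbol, matched to samples by title. Among values of 2 to 11, 72.1% to 75.2% were even where 50% would be expected. Whether mates of a pair were counted separately is not given in the sources used here, and halved counts were tried.

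The members and gene lists were chosen with earlier results of these data known. Counts were fitted by edgeR 4.0.16 (R 4.3.3; quasi-likelihood test, group only, TMM, filterByExpr with a minimum count of 10, Benjamini-Hochberg adjustment over 18851 genes), and DESeq2 1.42.0 was an alternative. The SE is the log2 fold change divided by the square root of F. P-values measure the spread between these cultures, which may be technical. The fit was tested on simulated data. Ratios used exact permutation tests (SciPy 1.17.1). Lengths came from GENCODE release 29 (98.1% of symbols) and promoters from RefSeq.

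Genes named are all members, of each list those past an adjusted p of 0.05 and a fold change of 1.5 or, where none, the gene with the smallest p, the 3 nearest profiles, and IRF1. Others (such as HPF1, TIPARP, PARP6, KPNA1, HSPBAP1, GRINA and the genes called under 1.5-fold) were named after their values were seen. Protein sequences were not analysed here, and 1 gene of the IFN signal list is not reported here. Alternatives were other scalings, filters, DESeq2, a test against a 1.5-fold change, leaving out each library, a replicate block and, added after seeing the data, thinning to the smallest library. Deviations of same-numbered libraries correlated at 0.0137, 0.0250 and −0.0072, so the numbers were not taken as pairs.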

Additional observations from a re-analysis of the deposited data

How the results depend on the processing

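The 5 IFN-linked members were called lower under every alternative run. Their log2 fold changes ranged from −2.67 to −2.51 for PARP9, −2.11 to −2.002 for DTX3L, −2.98 to −2.86 for PARP14, −3.32 to −3.08 for PARP10 and −2.003 to −1.89 for PARP12. With the replicate block, which is no pairing here, no call of a member changed (PARP1 −0.1316, PARP2 0.1716).

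The small values were less stable. PARP1 lost its call under upper quartile scaling (−0.088), library size only (−0.081), the test against a 1.5-fold change (−0.13) and 2 of the fits without a library (range over all 6 fits −0.15 to −0.12). PARP2 lost it in the test against a 1.5-fold change (0.17) and in 3 of the fits without a library (range over all 6 fits 0.12 to 0.21), and PARP4 gained it with no filter (−0.11) and without IRF1shRNA replicate 2 (range −0.15 to −0.070). PARP8 changed sign under upper quartile scaling (0.030), library size only (0.038), at least 1 CPM in 3 samples (0.012) and thinned libraries (0.24), and ran from −0.073 to 0.050 without a library. The cause was not tested.

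Of the other 4 members, 1 was called lower as reported, 0 under upper quartile scaling, library size only and the 1.5-fold test, 2 with no filter, and 0 to 2 without a library. The 1 called higher became 0 in the 1.5-fold test and 0 to 1 without a library. Against PARP2, the log2 ratios changed by −2.78 (PARP9), −2.23 (DTX3L), −3.09 (PARP14), −3.39 (PARP10), −2.11 (PARP12), −0.28 (PARP4) and −0.19 (PARP8), since PARP2 rose against PARP1. The last 2 had changed by 0.02 and 0.11 against PARP1, so both reversed in sign. Against PARP2 neither overlapped between the groups (exact permutation p = 0.1 each, 0.1 after adjustment over the 7 ratios to PARP2).

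TNKS made 1 higher call in the PARP family, against 0, under upper quartile scaling, library size only and the 1 CPM filter. In the 1.5-fold test, 0 ADP-ribose genes were lower and 1 higher, 1 Deltex gene lower and 0 higher, 1 NAD+ gene lower and 3 higher, and 0 neighbors lower and 1 higher. Of all genes it called 1064 lower and 546 higher, against 4971 and 4548. The neighbors called lower were 0 under upper quartile scaling and library size only, 1 in thinned libraries and 0 to 2 without a library. Of the 15 nearest profiles, 0 were shared with those ranked by Pearson's r. Depth limits PARP8, and values from a single hairpin and line carry no wider error.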
